A study of Saccharomyces cerevisiae with 20 samples.

Results

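NADcapPro recovers RNAs that carry nicotinamide adenine dinucleotide (NAD) at the 5′ end, and the data described here are the 3 NADcapPro libraries of wild-type (WT) budding yeast set against the 3 standard RNA-seq libraries of the same strain. These 6 libraries were chosen by their assay and genotype labels from 20 samples in the series. The series also holds WT libraries of SPAAC, the same capture without removal of m7G caps, and libraries of the xrn1-H41A mutant, whose Xrn1 is deficient in removing NAD and keeps its exoribonuclease activity. Both assays used BY4741, a MATa laboratory strain of Saccharomyces cerevisiae with deletions at HIS3, LEU2, MET15 and URA3. The cells grew in rich medium, with no treatment named. The study's methods list glucose and glycerol as carbon sources, and name exponential growth only for its ribosome preparations. For NADcapPro, polyA RNA of 3 independent biological replicates was treated with Dcs1, an enzyme that hydrolyzes m7G caps. ADP-ribosyl cyclase (ADPRC) then exchanged the nicotinamide of NAD for an azide, a strained alkyne carrying biotin was reacted with that azide without copper, and streptavidin beads recovered the RNA. The labels name total RNA for every library, and the input of the standard RNA-seq is not given in the sources used here, so capture and any difference of input cannot be told apart.

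Most messenger RNAs of eukaryotes begin with an m7G cap, which protects the 5′ end and recruits the translation machinery. A smaller part begins with NAD, and such RNAs are substrates of dedicated enzymes that remove the NAD, among them Xrn1, Rai1 and Dxo1 in yeast. Capture followed by sequencing gives a relative measure. A transcript that makes up a larger part of the captured RNA than of the starting RNA is called enriched and one that makes up a smaller part depleted, so the level of an NAD cap on a transcript is not read directly. The series lists negative controls of the capture processed without ADPRC, which are not analysed here, so the background of the capture was not set against these values and enriched means higher than in RNA-seq only.

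The sequences of 6 transcripts on which the results turn are given from the RefSeq transcripts of assembly R64. SNR9, a small nucleolar RNA (chromosome XV, 407948 to 408134, minus strand, 187 nt, no other annotated transcript over it), had the largest log2 fold change of the transcripts eligible by the naming rule and is shown whole.
SNR9: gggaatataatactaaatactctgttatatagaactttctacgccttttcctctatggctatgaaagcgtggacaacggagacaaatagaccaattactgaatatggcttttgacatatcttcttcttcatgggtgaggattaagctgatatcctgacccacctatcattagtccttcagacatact
YNL143C, an uncharacterized open reading frame (chromosome XIV, 356794 to 357186, minus strand), came next, and holds the longest run of A in the tested transcripts, 32 bases from base 143 to base 174. Bases 113 to 204 are shown with that run in capitals.
YNL143C: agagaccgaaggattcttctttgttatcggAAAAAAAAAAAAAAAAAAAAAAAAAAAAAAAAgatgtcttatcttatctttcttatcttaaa
RPS28A (chromosome XV, 648804 to 649007, minus strand) and RPS28B (chromosome XII, 673131 to 673334, plus strand) encode nearly the same small-subunit ribosomal protein, and RPS28B had the smallest log2 fold change of the eligible transcripts. Their coding sequences are shown whole, with the 24 bases of 204 at which they differ in capitals, an identity of 88.2%.
RPS28A: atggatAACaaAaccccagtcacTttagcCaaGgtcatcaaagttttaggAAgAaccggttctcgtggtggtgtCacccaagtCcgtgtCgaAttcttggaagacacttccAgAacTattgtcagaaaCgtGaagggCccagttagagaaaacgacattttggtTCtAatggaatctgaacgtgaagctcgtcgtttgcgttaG
RPS28B: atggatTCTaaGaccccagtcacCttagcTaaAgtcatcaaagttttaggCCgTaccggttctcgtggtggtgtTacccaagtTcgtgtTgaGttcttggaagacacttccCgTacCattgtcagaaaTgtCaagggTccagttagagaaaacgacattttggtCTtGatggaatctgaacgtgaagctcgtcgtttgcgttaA
RPL21A (chromosome II, 606270 to 607140, plus strand) and RPL21B (chromosome XVI, 406636 to 407539, plus strand) encode a large-subunit protein and differ at 29 of 483 coding bases, an identity of 94.0%. Bases 181 to 300 are shown, with the 10 differences in this window in capitals.
RPL21A: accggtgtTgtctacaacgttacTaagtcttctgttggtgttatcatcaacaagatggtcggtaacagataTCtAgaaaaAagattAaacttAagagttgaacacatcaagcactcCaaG
RPL21B: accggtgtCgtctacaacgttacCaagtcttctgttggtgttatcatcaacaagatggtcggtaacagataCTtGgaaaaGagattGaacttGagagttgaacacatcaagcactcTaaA

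Total counts were 30206709, 28462212 and 29491919 in NADcapPro and 13038320, 24369734 and 29409788 in RNA-seq, so the first RNA-seq library was the shallowest. The 10 transcripts with most counts held between 8.21% and 8.59% of the counts in NADcapPro and between 12.4% and 12.5% in RNA-seq. Replicate libraries differed by more than counting noise, the chi-square per transcript being 3.91 to 13.1, and each was taken as 1 sample. The deleted marker genes were checked first. URA3 had 0 counts in each NADcapPro library and 2, 0 and 0 counts in RNA-seq, LEU2 had 0 counts in each NADcapPro library and 3, 0 and 4 in RNA-seq, and MET17 (the gene labelled MET15) had 0 counts in all 6. HIS3, whose his3 allele in this strain removes only part of the gene, had 407, 416 and 412 CPM (counts scaled to a library size that edgeR adjusts by its TMM method) in NADcapPro, against 99.8, 104 and 115 CPM in RNA-seq.

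Of 6020 transcripts tested, 787 were enriched in NADcapPro over RNA-seq (13.1%) and 593 were depleted (9.85%), at a change of at least 2-fold and an adjusted p of at most 0.01 in edgeR's quasi-likelihood test. Short transcripts made up most of the enriched set and long ones most of the depleted set. The median length of the transcript was 639 nt among the enriched and 2475 nt among the depleted, and the mean length per count was 1304 to 1327 nt in NADcapPro against 1550 to 1572 nt in RNA-seq. Of the messenger RNAs in the set, 99.2% have lengths that are multiples of 3, so these are coding lengths without untranslated regions.

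Across 6 classes of length, the median log2 fold change was 0.43 below 300 nt, 0.48 from 300 to under 600 nt, 0.41 from 600 to under 1000 nt, 0.16 from there to under 1500 nt, -0.26 from 1500 to under 2500 nt and -0.81 from 2500 nt. In the class below 300 nt, 111 of 364 transcripts were enriched (30.5%) and 22 were depleted (6.04%). In the class from 2500 nt, 3 of 826 were enriched (0.36%) and 292 were depleted (35.4%). The counts themselves shifted in the same way. Transcripts of 300 to under 600 nt held 21.9%, 22.4% and 22.3% of the counts in NADcapPro, against 17.0%, 17.4% and 17.3% in RNA-seq, and those from 2500 nt held 10.2% to 10.8% in NADcapPro against 15.8% to 16.3% in RNA-seq. No library of one assay overlapped those of the other in either class. An exact permutation test of 3 against 3 libraries cannot go below p = 0.1 (two-sided).

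**Figure D1:**
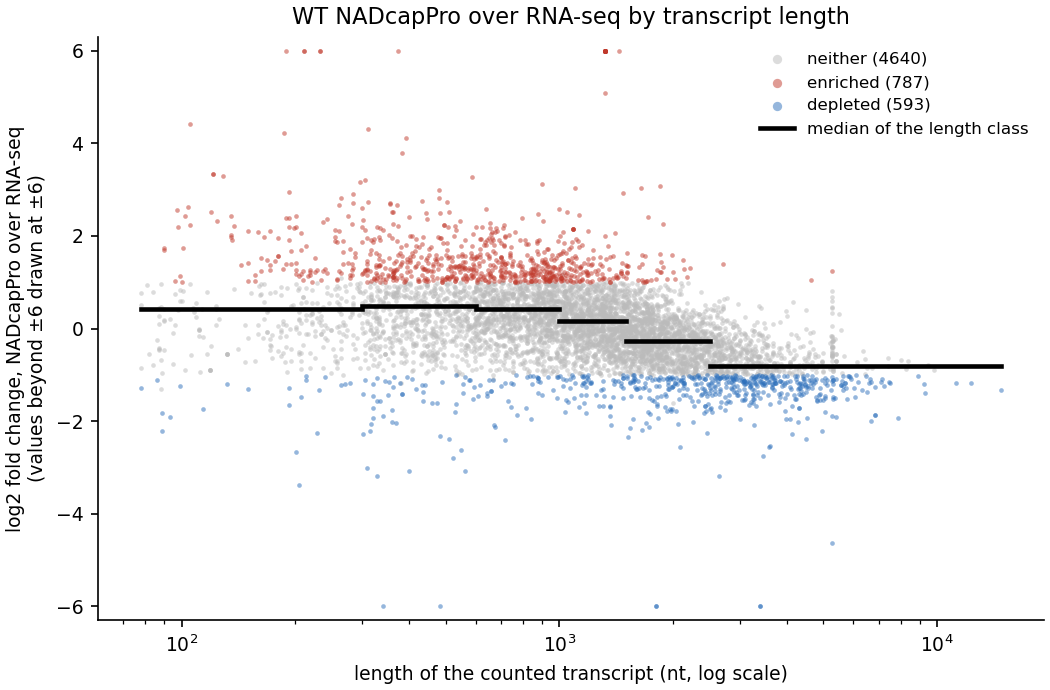
Log2 fold change of NADcapPro over RNA-seq (y axis, values beyond ±6 drawn at ±6) against the length of each tested transcript (x axis, nt, log scale), 1 point per transcript in red where enriched (787), blue where depleted (593) and grey otherwise. The black bars are the medians of the 6 length classes, which run between 0.48 at 300 to under 600 nt and -0.81 from 2500 nt.

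**Figure D2:**
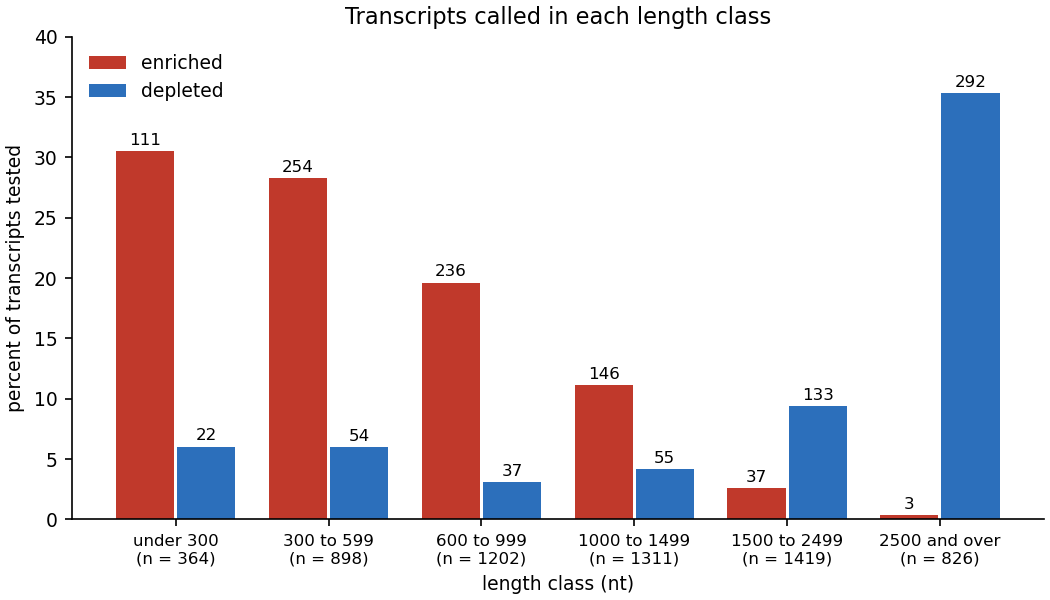
Percent of the tested transcripts in each length class (x axis, nt, with the number tested) that were enriched (red) or depleted (blue) in NADcapPro over RNA-seq, with the number of transcripts on each bar. The enriched percent was 30.5 in the class below 300 nt and 0.36 in the class from 2500 nt.

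To take length into account, the trend of each library on length was estimated by a running regression over all tested transcripts and removed as an offset. With it removed, 457 transcripts were enriched (7.59%) and 436 were depleted (7.24%), and 410 of the enriched and 250 of the depleted were the same transcripts as before. A further 47 were enriched and 186 depleted only after removal. Of the 364 transcripts below 300 nt, 67 were then enriched and 49 depleted, and of the 826 from 2500 nt, 26 were enriched and 20 depleted, so calls in both directions were more frequent among short transcripts. Medians by class in other comparisons are set beside these. In xrn1-H41A, whose 6 libraries are separate from those of WT, the median was 0.55 below 300 nt and -0.43 from 2500 nt. In WT SPAAC over the same RNA-seq libraries it was 0.24 and -1.43. What sets this trend was not tested.

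Genes ranked by the size of the change were taken from called transcripts whose libraries did not overlap between assays, with at least 10 CPM in the higher assay and at least 50% of their 31-base words (31-mers) in no other transcript. Among these, the largest positive changes were those of a small nucleolar RNA and an uncharacterized gene. SNR9 had 112, 119 and 129 CPM in NADcapPro, against 6.12, 5.94 and 7.09 CPM in RNA-seq. Its log2 fold change was 4.21 (0.0772 standard error, 1.01e-14 adjusted p in edgeR), 3.80 with the length trend removed and 4.13 in xrn1-H41A. YNL143C, the gene with the run of 32 A, had 4529, 4932 and 4302 CPM in NADcapPro, against 268, 305 and 223 CPM in RNA-seq, a log2 fold change of 4.11 (0.0921 standard error, 6.22e-14 adjusted p in edgeR). Its SPAAC value over the same RNA-seq libraries was -2.04. Of 23 tested transcripts with a run of at least 12 A, 2 were enriched (8.70%, against 13.1% of all tested) and 4 depleted (17.4%, against 9.85%), and MTC7, with 25 A, had a log2 fold change of -0.02.

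The next members named by the rule included metabolic, membrane and transport genes. MTM1, a mitochondrial carrier needed for manganese loading of superoxide dismutase, had 686, 659 and 663 CPM in NADcapPro, against 78.9, 84.5 and 81.1 CPM in RNA-seq. Its log2 fold change was 3.04 (0.0384 standard error, 6.70e-16 adjusted p in edgeR) in WT and 4.07 in xrn1-H41A. GNA1, an acetyltransferase on the route to UDP-N-acetylglucosamine and so to chitin, had 582, 597 and 564 CPM in NADcapPro, against 66.4, 72.1 and 78.0 CPM in RNA-seq, a log2 fold change of 3.00 in WT and 3.52 in xrn1-H41A. MVB12, a subunit of the ESCRT-I complex that sorts ubiquitinated cargo, had 109, 109 and 119 CPM in NADcapPro, against 12.2, 10.8 and 13.6 CPM in RNA-seq, a log2 fold change of 3.20.

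Other genes named by the rule act in carbon storage, the cell wall or transcription. IGD1, which inhibits the glycogen debranching enzyme Gdb1, had 112, 114 and 122 CPM in NADcapPro, against 13.0, 11.5 and 11.9 CPM in RNA-seq. Its log2 fold change was 3.27 (0.0556 standard error, 6.22e-15 adjusted p in edgeR). DAN1, a cell wall mannoprotein made under anaerobic conditions, had 37.3, 35.5 and 36.6 CPM in NADcapPro against 4.27, 4.29 and 4.03 CPM in RNA-seq, a log2 fold change of 3.13. STP4, a zinc finger protein, had 207, 195 and 213 CPM in NADcapPro, against 28.5, 27.2 and 25.3 CPM in RNA-seq, and was not weakened by the removal of length (log2 fold change 2.94 as measured and 2.95 after). HSP30, a heat shock protein of the plasma membrane, reached 2.58, and ADH2, the glucose-repressed alcohol dehydrogenase, 2.51 on the log2 scale. In xrn1-H41A the log2 fold changes were 1.75 for IGD1, 0.42 for DAN1, 1.00 for STP4, 0.21 for HSP30 and 1.79 for ADH2. MUP3, a low-affinity methionine permease, was 3.03 in WT and 0.73 in xrn1-H41A.

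DAD3 and BET5 had the largest change of the kinetochore and secretory lists. DAD3, a subunit of the DASH complex that couples kinetochores to microtubules, had 174, 171 and 184 CPM in NADcapPro, against 24.6, 24.3 and 22.2 CPM in RNA-seq. BET5, a subunit of the TRAPP tethering complex, averaged 260 ± 6.99 CPM in NADcapPro and 37.1 ± 3.6 CPM in RNA-seq (SD, n = 3 each). The log2 fold changes were 2.91 for DAD3 and 2.83 for BET5. EGO4 and YFL041W-A, for which no role is given here, had log2 fold changes of 3.16 and 2.94.

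**Figure D3:**
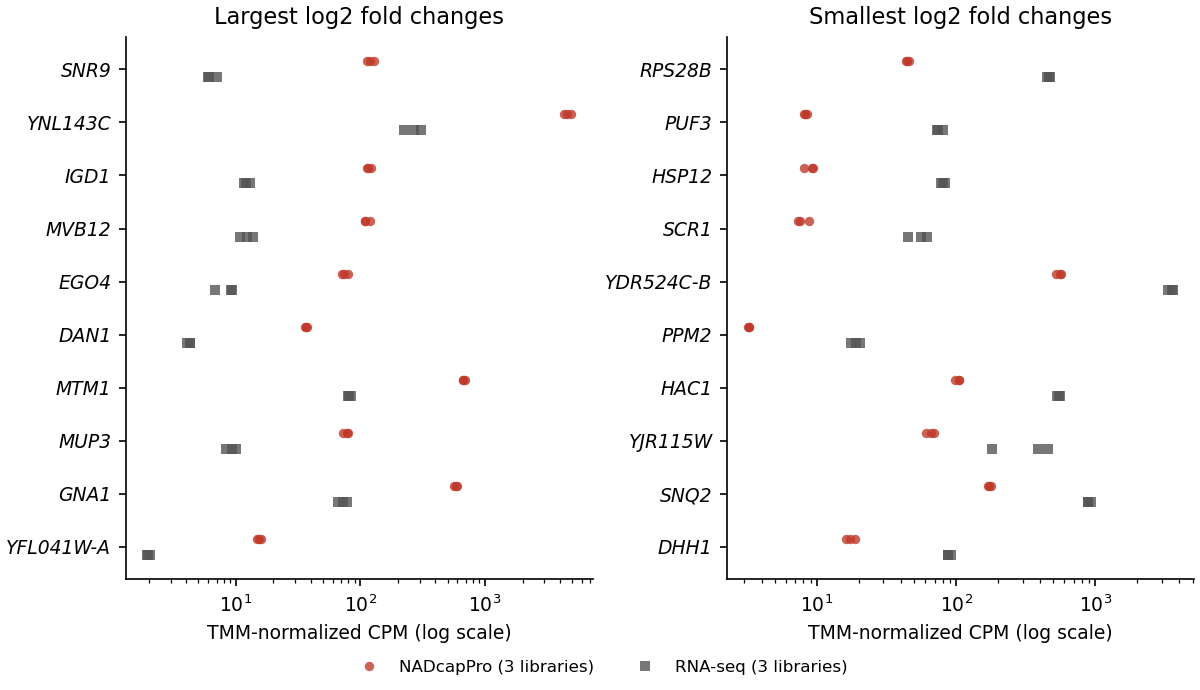
TMM-normalized CPM (x axis, log scale) in the 3 NADcapPro (red circles) and 3 RNA-seq (grey squares) libraries for the 10 largest and the 10 smallest log2 fold changes of transcripts eligible by the naming rule. The libraries of the 2 assays do not overlap for any of the 20 genes, and the YJR115W RNA-seq libraries spread most, with 389, 457 and 182 CPM.

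On the depleted side, RPS28B had 45.7, 44.2 and 43.5 CPM in NADcapPro, against 468, 451 and 474 CPM in RNA-seq. Its log2 fold change was -3.38 (0.0409 standard error, 4.44e-16 adjusted p in edgeR), -3.82 with the length trend removed and -3.20 in xrn1-H41A. PUF3, an RNA-binding protein that regulates messages for mitochondrial proteins, had 8.21, 8.51 and 8.11 CPM in NADcapPro, against 80.3, 74.6 and 72.3 CPM in RNA-seq, a log2 fold change of -3.19. HSP12, a small membrane-associated stress protein, had 9.30, 9.25 and 8.14 CPM in NADcapPro, against 80.6, 77.3 and 83.3 CPM in RNA-seq, a log2 fold change of -3.18 in WT and -1.31 in xrn1-H41A. The heat shock chaperones, the list that holds HSP12 and HSP30, had 2 enriched and 6 depleted of 31 members, with a median of -0.37, and 3 and 4 with the length trend removed. If each member were called as often as the transcripts of its own length class, 8.86% would be enriched and 7.81% depleted, and such figures are called class shares.

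SCR1, the RNA of the signal recognition particle, had 7.30, 7.54 and 8.72 CPM in NADcapPro, against 56.3, 45.4 and 62.1 CPM in RNA-seq (log2 fold change -2.80). HAC1, the transcription factor of the unfolded protein response, had 105, 105 and 98.5 CPM in NADcapPro, against 555, 531 and 545 CPM in RNA-seq (log2 fold change -2.40). SNQ2, a multidrug transporter of 4506 nt, had 173, 178 and 170 CPM in NADcapPro, against 929, 889 and 890 CPM in RNA-seq. Its log2 fold change of -2.38 was -1.46 with the length trend removed. DHH1, a helicase that promotes decapping, had 18.8, 17.4 and 16.1 CPM in NADcapPro, against 91.5, 87.1 and 87.8 CPM in RNA-seq (log2 fold change -2.34, -2.29 with the length trend removed and -2.20 in xrn1-H41A). Short transcripts were depleted too. YDR524C-B, of 201 nt, had 525, 562 and 560 CPM in NADcapPro, against 3541, 3587 and 3342 CPM in RNA-seq. Its log2 fold change was -2.67 here and 1.32 in SPAAC, which shares the RNA-seq libraries.

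Of the 6 depleted transcripts with most RNA-seq abundance, ENO2, FBA1 and GPM1 are glycolytic. ENO2, one of the enolases, had 6077, 6243 and 6391 CPM in NADcapPro, against 17112, 17327 and 17196 CPM in RNA-seq, a log2 fold change of -1.46 (0.0254 standard error, 6.46e-15 adjusted p in edgeR). PGK1, phosphoglycerate kinase, stood at -1.43, GPM1, phosphoglycerate mutase, at -1.17 and FBA1, aldolase, at -1.01 on the log2 scale (just short of a call without RNA-seq replicate 3, and at -0.99 without NADcapPro replicate 1). The glycolysis and fermentation list held 1 enriched and 6 depleted members of 25, with a median of -0.68, against 0.01 over all tested transcripts. Together its members took 7.64% ± 0.254 of the counts in NADcapPro against 12.3% ± 0.0712 in RNA-seq (SD, n = 3 each). The class shares were 9.59% enriched and 7.91% depleted, so 6 of 25 depleted is above that share. With the length trend removed 6 were still depleted, with a median of -0.64, and in xrn1-H41A 13 were depleted.

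Among the genes of translation, those of cytosolic ribosomal proteins are short, and lists of their lengths would hold 26.2% (large subunit) and 26.5% (small subunit) enriched members by the class shares. The class shares of depleted members were 5.37% (large subunit) and 5.30% (small subunit). Of 81 large-subunit genes, 9 were enriched and 11 depleted, and of 57 small-subunit genes 0 were enriched and 9 depleted, the highest being RPS4B at a log2 fold change of 1.00, just under the threshold. The sum of counts was 11.8% ± 0.163 in NADcapPro against 10.8% ± 0.123 in RNA-seq for the large subunit, and 7.99% ± 0.0971 in NADcapPro against 8.06% ± 0.0523 in RNA-seq for the small subunit (SD, n = 3 each). With the length trend removed, 3 and 0 were enriched and 27 and 16 were depleted, where 7.59% and 7.24% of all tested transcripts were called. The median lengths of the lists were 450 and 432 nt. Of all 898 tested transcripts of 300 to under 600 nt, 99 were enriched and 122 depleted after removal, a higher rate than over all tested. RPL29, a small protein of the large subunit, was among the enriched, with 2852, 3084 and 3158 CPM in NADcapPro, against 732, 784 and 823 CPM in RNA-seq (log2 fold change 1.96). RPP1A, an acidic stalk protein, had 475, 492 and 502 CPM in NADcapPro, against 1901, 1900 and 1822 CPM in RNA-seq (log2 fold change -1.94). RPS30A had 259, 273 and 281 CPM in NADcapPro, against 864, 853 and 852 CPM in RNA-seq (log2 fold change -1.66).

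The initiation and elongation factors held 1 enriched and 7 depleted of 36 members, the aminoacyl-tRNA synthetases 0 and 4 of 19, and the processome and ribosome biogenesis genes 1 and 14 of 109. The class shares of depleted members were 12.1% for the factors, 14.0% for the synthetases and 10.3% for the biogenesis genes, so 14 of 109 is near its share. Those of enriched members were 10.6%, 3.48% and 8.89% in the same order. The 1 of 36 factors (2.78%) and 1 of 109 biogenesis genes (0.92%) enriched are below their shares. The depleted numbered 7 factors, 1 synthetase and 5 biogenesis genes with the length trend removed. The medians as measured were -0.45, -0.58 and -0.31 on the log2 scale. FUN12, the initiation factor eIF5B, stood at -1.95, and at -1.24 with the length trend removed. The mitochondrial ribosomal proteins had 20 enriched and 0 depleted of 75 members and a median of 0.48, and took 0.849% ± 0.00994 of the counts in NADcapPro against 0.465% ± 0.0058 in RNA-seq (SD, n = 3 each). Their class shares give 22.1% enriched, so 20 of 75 is near the share for their length. RSM19, a mitochondrial small-subunit protein, had 296, 300 and 296 CPM in NADcapPro, against 51.1, 55.3 and 58.6 CPM in RNA-seq (log2 fold change 2.43). With the length trend removed 7 were enriched and 3 depleted, with a median of 0.07.

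Ribosomal protein paralogs were compared by the log2 ratio of copy A to copy B within each library, in which the scaling of the library cancels. Coding lengths are equal in 42 of 46 pairs used, and the lengths of the transcripts with their untranslated regions are not known here. In 13 pairs this ratio differed by at least 1 between NADcapPro and RNA-seq, with the A copy higher in NADcapPro in 8 and the B copy in 5. The RPL21 ratio was -1.91, -1.85 and -1.84 in NADcapPro, against 0.64, 0.65 and 0.62 in RNA-seq. RPL21B had 5672, 5815 and 5563 CPM in NADcapPro, against 977, 1002 and 1024 CPM in RNA-seq (log2 fold change 2.50, standard error 0.0286, edgeR adjusted p = 2.47e-16), while RPL21A had 1505, 1619 and 1552 CPM in NADcapPro, against 1526, 1567 and 1569 CPM in RNA-seq (log2 fold change 0.00, edgeR adjusted p = 0.90). The more abundant copy thus differed between the assays.

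The RPS28 ratio was 3.82, 3.99 and 3.88 in NADcapPro, against 0.97, 1.04 and 1.06 in RNA-seq. The RPL8 ratio was -3.95, -3.88 and -3.82 in NADcapPro, against -1.06, -1.06 and -1.04 in RNA-seq. The RPL15 pair was the only one with opposite calls, with a log2 fold change of -1.22 for RPL15A and 1.55 for RPL15B. RPL16, whose copies have coding lengths of 600 and 597 nt, changed the copy that was higher, with ratios of 1.25, 1.22 and 1.18 in NADcapPro, against -0.70, -0.63 and -0.68 in RNA-seq. Libraries of one assay did not overlap those of the other for the pairs named, and the median SD between replicates was 0.0352 in NADcapPro and 0.0471 in RNA-seq. The smallest p of an exact permutation test is 0.1 for each pair. In xrn1-H41A, all 13 differences had the same sign and 10 were at least 1. In WT SPAAC over the same RNA-seq libraries they lay between -0.90 and 0.50. Kallisto divides reads that both copies share, so the ratios rest on the bases that differ.

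**Figure D4:**
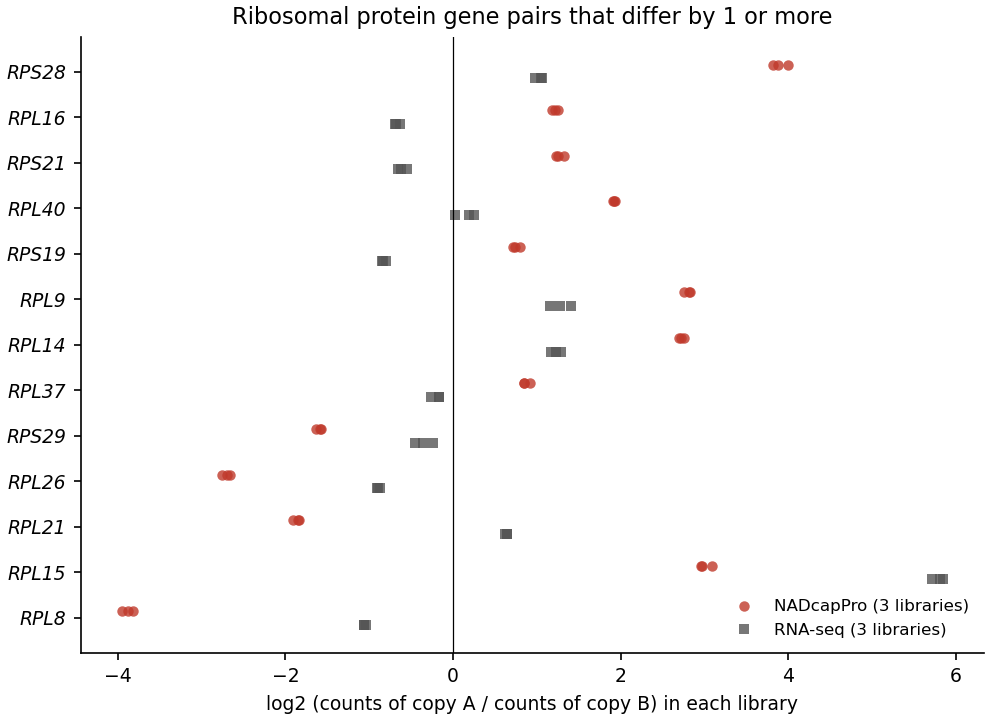
Log2 ratio of the counts of copy A to copy B (x axis) in each of the 3 NADcapPro (red circles) and 3 RNA-seq (grey squares) libraries, for the 13 ribosomal protein pairs, of 46 used, whose mean ratio differed by at least 1 between the assays. The RPL21 ratios lie between -1.91 and -1.84 in NADcapPro and between 0.62 and 0.65 in RNA-seq.

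Among the genes of nuclear RNA metabolism, Sm and Lsm proteins, the ring subunits that bind spliceosomal and decay RNAs, held 8 enriched and 0 depleted of 16 with a median of 0.98, and class shares of 29.3% enriched. SMD3 had 93.0, 88.1 and 91.4 CPM in NADcapPro, against 19.6, 20.3 and 22.1 CPM in RNA-seq (log2 fold change 2.12). With the length trend removed, 2 of the 16 were enriched, SMD3 among them at 1.65, and 4 were enriched in xrn1-H41A. Ubiquitin and its conjugating enzymes held 8 enriched and 0 depleted of 18, with class shares of 25.1%, and UBC8 had a log2 fold change of 2.28, and 1.82 with the trend removed. RNA polymerase II and the general transcription factors held 7 enriched and 1 depleted of 35, near their class share of 16.1% enriched, and 0 of each with the trend removed. The SAGA coactivator held members on both sides, 4 enriched and 3 depleted of 19, with class shares of 10.6% and 9.55%. SGF11, of its deubiquitinating module, had 116, 118 and 113 CPM in NADcapPro, against 23.9, 26.7 and 25.3 CPM in RNA-seq, a log2 fold change of 2.18. ADA2, of its acetyltransferase module, stood at -1.67, and TRA1, its largest subunit, at -1.17, which was 0.12 with the trend removed.

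Some lists hold mostly long genes. Of 33 nuclear pore genes, 0 were enriched and 11 depleted, against 19.8% depleted by the class shares, and 1 was depleted with the length trend removed. Of 25 plasma membrane ATPases and ABC transporters 11 were depleted, against 35.4% by the class shares, and the median was 0.04 with the trend removed and -0.86 as measured. The cell wall list had 3 enriched and 9 depleted of 34 as measured, with class shares of 11.4% and 9.38%, and 0 and 8 with the trend removed. TOS1, a covalently bound cell wall protein, had 240, 240 and 245 CPM in NADcapPro, against 1043, 1042 and 981 CPM in RNA-seq (log2 fold change -2.08). The trehalose and glycogen list held 3 enriched and 1 depleted of 20 as measured, with class shares of 2.79% and 16.6%, and 4 enriched and 0 depleted with the trend removed, and a median of 0.58. GSY1, glycogen synthase, had 169, 166 and 164 CPM in NADcapPro, against 63.3, 58.4 and 56.9 CPM in RNA-seq (log2 fold change 1.49, and 1.88 with the trend removed). GPH1, glycogen phosphorylase, reached 1.39 and 2.01, and GLG1, a glycogen primer, 1.61 and 1.86. In xrn1-H41A the values of GSY1, GPH1 and GLG1 were 0.19, 0.41 and 0.30.

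**Figure D5:**
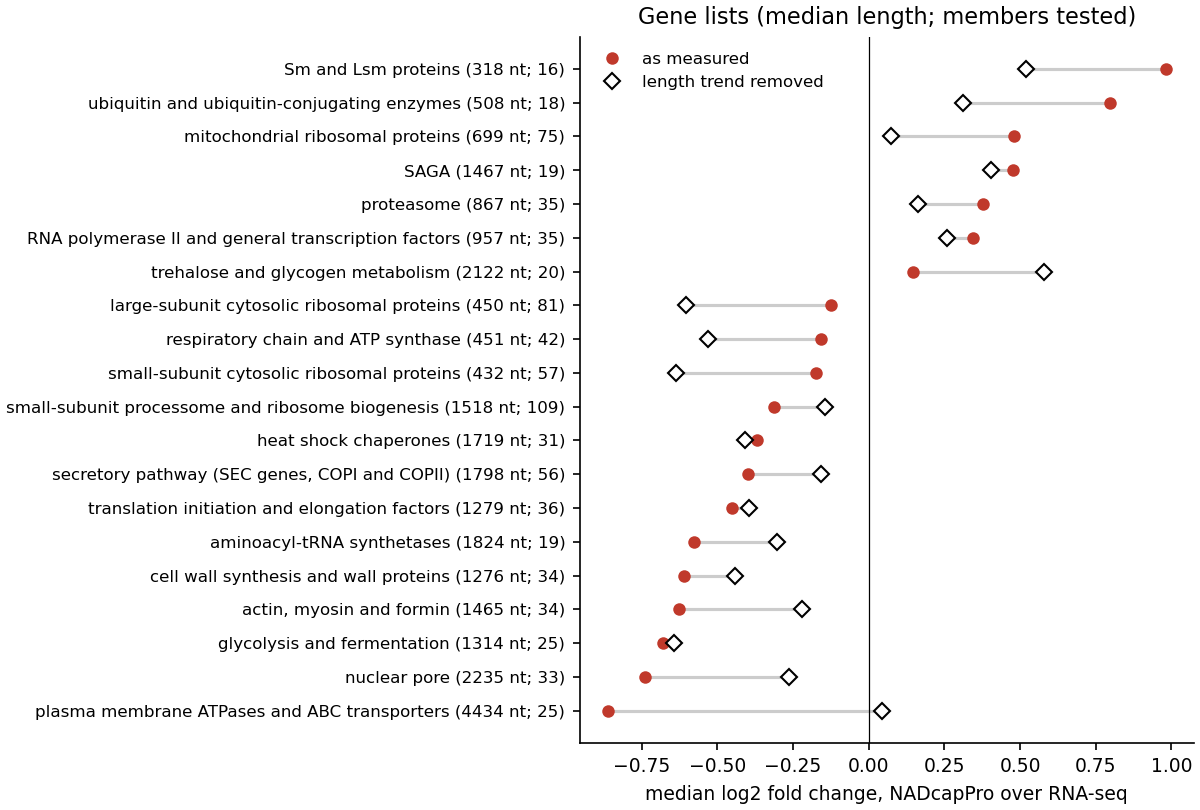
Median log2 fold change of NADcapPro over RNA-seq (x axis) for 20 gene lists as measured (red circles) and with the length trend removed (open diamonds), with the median length (nt) and number of members tested beside each name. The median of the plasma membrane ATPases and ABC transporters was -0.86 as measured and 0.04 with the trend removed, and that of glycolysis -0.68 and -0.64.

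Lists of other cell parts held transcripts on both sides, and the highest or lowest member is named for some. Of 42 genes of the respiratory chain and ATP synthase, 3 were enriched and 3 depleted, with class shares of 23.2% enriched, and 2 and 8 with the trend removed. CYC7, a cytochrome c isoform, had 14.0, 15.5 and 15.7 CPM in NADcapPro, against 4.35, 3.03 and 3.28 CPM in RNA-seq (log2 fold change 2.14), and ATP1, the alpha subunit of ATP synthase, had 257, 262 and 265 CPM in NADcapPro, against 750, 730 and 713 CPM in RNA-seq (-1.48). HXT6, a high-affinity glucose transporter, had 81.7, 76.3 and 85.4 CPM in NADcapPro, against 14.1, 15.3 and 15.8 CPM in RNA-seq, with a log2 fold change of 2.41 that was 2.58 with the trend removed and 0.00 in xrn1-H41A, and its reads may be shared with near-identical HXT7. ROX3, a Mediator subunit, stood at 2.09, and SRB8, another, at -2.02 (-1.13 with the trend removed). Of 74 small nucleolar RNAs, 16 were enriched and 6 depleted (21.6% and 8.11%), with class shares of 29.9% and 5.98%, and 8 and 16 with the trend removed. Of 35 proteasome genes, 3 were enriched and 0 depleted, with class shares of 15.5% and 5.92% and with RPT6, an ATPase of the base, at 1.40. Of 56 secretory pathway genes, 8 were enriched and 12 depleted, with class shares of 10.5% and 15.8%, and 3 and 0 with the trend removed.

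Genes of NAD metabolism were called on both sides. Of 25 members, 3 were enriched and 4 depleted, with class shares of 12.5% and 4.83%. The enriched count is near its share, and 4 of 25 depleted is above the depleted share. With the length trend removed, 2 members were enriched and 4 depleted. In xrn1-H41A, 3 were enriched and 0 depleted. PNC1, the nicotinamidase of NAD salvage, had 460, 469 and 469 CPM in NADcapPro, against 156, 159 and 160 CPM in RNA-seq (log2 fold change 1.56, and 0.04 in xrn1-H41A). YIA6, a mitochondrial NAD carrier, stood at 1.88, and BNA2, the first enzyme of de novo synthesis, at -1.69, while BNA2 was -0.01 in xrn1-H41A. Of 20 genes of NAD cap removal, decapping and 5′ decay, 2 were enriched and 4 depleted, with class shares of 9.96% and 10.6%. XRN1 was -1.12 as measured and -0.20 with the trend removed, and DXO1, which removes NAD caps, was 1.00, just under the 2-fold threshold. The study reports RPL21B, SGF11, ENB1 and IMD4 as NAD-RNAs identified by NADcapPro. It also reports that each was detected in a separate, single-transcript circularization assay after treatment with Rai1. The study states that Rai1 can also remove FAD and dephospho-CoA caps, so that assay may pick up a mixture of caps. ENB1 and IMD4 were under the 2-fold threshold here. ENB1, a siderophore transporter, had 303, 293 and 290 CPM in NADcapPro, against 230, 227 and 226 CPM in RNA-seq (log2 fold change 0.38), and IMD4, an IMP dehydrogenase, 970, 981 and 945 CPM in NADcapPro, against 608, 611 and 614 CPM in RNA-seq (0.66). In xrn1-H41A the values were 0.17 for ENB1 and 1.37 for IMD4, and in WT NADcapPro over WT SPAAC, which shares the NADcapPro libraries, they were 1.13 and 1.35. TLC1, the telomerase RNA, was 0.66 in WT and 2.64 in xrn1-H41A.

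Calls also differed between groups by GC content, and these groups differ in length. In the lowest of 4 equal groups by GC content (median length 1384.5 nt), 129 of 1504 transcripts were enriched (8.58%) and 243 were depleted (16.2%). The class shares of that group were 11.9% and 12.4%. In the highest group (median length 894 nt), 288 of 1503 were enriched (19.2%) and 105 were depleted (6.99%), near class shares of 17.0% and 6.71%. With the length trend removed, the numbers were 72 and 106 in the lowest and 163 and 142 in the highest group. Calls in both directions were then more frequent in the highest group. The highest of 4 groups by RNA-seq abundance held 219 enriched (14.6%) and 121 depleted (8.04%) of 1505 transcripts, with class shares of 19.5% and 6.31%. With the trend removed these became 87 and 189. RNA-seq abundance is also the denominator of the fold change, so this grouping is not independent of the calls. Of 267 genes with more than 1 exon, 31 were enriched (11.6%) and 28 depleted (10.5%), with class shares of 21.4% and 7.26%, and 177 of them, without ribosomal proteins, held 25 and 16, with class shares of 18.4% and 8.13%. The strand of the reads is not stated, and 227 tested transcripts (3.77%) overlap another one, for which reads cannot be told apart.

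Counts of near-identical transcripts need separate reading, because Kallisto divides the reads they share. Of 6020 tested transcripts, 37 were at 3 counts or fewer in every RNA-seq library, and all 37 were called enriched, having passed the filter on low counts through NADcapPro. In 35 of them fewer than 50% of the 31-mers occur in no other transcript, and most are retrotransposon open reading frames. YAR010C, for instance, had 5914, 5625 and 6341 counts in NADcapPro and 0 in each RNA-seq library, at least 1337-fold higher against a floor of 3 counts per library, and 0% of its 31-mers are its own. The retrotransposon genes together took 3.52% ± 0.0885 of the counts in NADcapPro against 3.15% ± 0.0719 in RNA-seq (SD, n = 3 each). Of 80 tested, 34 were called enriched and 12 depleted, with class shares of 5.26% and 22.1%. In 79 of the 80, fewer than 50% of the 31-mers occur in no other transcript, so these calls rest mostly on reads divided among copies. Among the 5720 transcripts with at least 50% of their own 31-mers, 711 were enriched (12.4%) and 537 depleted (9.39%). The 24 transcripts that share sequence with the ribosomal DNA took 0.138%, 0.136% and 0.136% of counts in NADcapPro, against 0.478%, 0.582% and 0.327% in RNA-seq. Of 19 tested, 9 were enriched and 6 depleted, against 13.1% and 9.85% of all tested. Reads aligned to rRNA had been removed before counting, so these are not levels of rRNA.

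The same comparison in xrn1-H41A, which shares no library with that of WT, called 867 of 6046 transcripts enriched (14.3%) and 597 depleted (9.87%). Of the 787 enriched in WT, 503 were also enriched in xrn1-H41A, and of the 593 depleted, 278 were also depleted.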

How the data were processed

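RNA of WT Saccharomyces cerevisiae (BY4741) was sequenced from 3 NADcapPro and 3 standard RNA-seq libraries, and the members and gene lists were chosen with earlier results of these data known. The labels name SMART-Seq HT and Nextera XT libraries. The authors trimmed reads with fastp 0.23.2, removed reads that hisat2 aligned to rRNA, and deposited estimated counts per transcript from Kallisto 0.48.0, rounded to whole numbers, for 6106 RefSeq R64 transcripts. All deposited counts were whole. Lengths in the file equalled those of the reference for the 6098 transcripts found in it. The labels also list 2 NADcapPro negative controls, for WT and xrn1-H41A. The file has 2 entries named for the omission of ADPRC, and since neither name gives a strain, they were not used here. The strand of the reads is not given in the sources used here.

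The 6 libraries were fitted by the quasi-likelihood test of edgeR 4.0.16 (TMM, default expression filter) in R 4.3.3, with Benjamini-Hochberg adjustment over all transcripts tested. A call needed a change of 2-fold or more with an adjusted p of 0.01 or less, as in the study. The study used DESeq2 with apeglm, run here as an alternative (DESeq2 1.42.0, apeglm 1.24.0). The length trend was a lowess fit (span 0.3) of each library's log2 CPM deviation on log10 length, used as an offset. Tables were made in Python 3.11.15 with pandas 2.3.3 and NumPy 2.4.6. A list's share by length class is the mean, over its members, of the percent called in each member's class.

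Named were transcripts called, with no overlap between assays, at least 10 CPM in the higher assay and at least 50% of their own 31-mers. From these came the 10 largest and 10 smallest log2 fold changes, the same with the length trend removed, and the 6 most abundant in RNA-seq in each direction. Added were the 4 genes assayed in the study, HIS3, LEU2, MET17, URA3, TLC1 and the highest and lowest tested member of each of 51 lists. Other members, paralogs and transcripts with a run of A were named after their values were seen. A fold over libraries at 3 counts or fewer is a lower bound against 3 counts per library. No molecular identifiers were used, so this floor covers counting error alone. The p-values test the difference between assays against the spread between replicate libraries, which edgeR estimates partly from all transcripts together.

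Alternatives were DESeq2 size factors, library totals, other filters, DESeq2, a test against a 2-fold change, all 18 libraries, a replicate block, each replicate left out, and transcripts with at least 50% of their own 31-mers, the last chosen after seeing the data. On simulated counts with 200 changed transcripts among 6025 tested, 200 were recovered with 0 false calls. With a simulated length trend, among 6038 tested, 197 were recovered with 378 false calls before its removal and 200 with 0 after. The planted changes were all larger than the 2-fold threshold and lay in transcripts with ample counts. The simulated trend was a straight line on log10 length, and the spread between replicates was fixed. The simulation therefore does not show how changes near 2-fold, low counts or a trend of another shape are handled.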

Additional observations from a re-analysis of the deposited data

Results flagged for a closer look

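In 13 of 39 named genes, the log2 fold change of NADcapPro over RNA-seq differed between the strains by a test of the difference itself, an interaction term in one edgeR fit over the 12 WT and xrn1-H41A libraries (at least 1 on the log2 scale, adjusted p of at most 0.01). Over all 6059 transcripts of that fit, 178 differed with WT higher and 254 with WT lower. The 39 were those named for the size of their WT change, for abundance or for the study's own assays, without the highest and lowest of the lists. Most were therefore chosen on the WT value, which is 1 term of the difference, so 13 of 39 is partly fixed by that choice and is not to be read against the share over all transcripts. Values are WT minus xrn1-H41A on the log2 scale.

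The difference was 2.70 for DAN1 (standard error 0.181, edgeR adjusted p = 2.69e-10), 2.29 for MUP3, 2.26 for EGO4, 1.92 for STP4, 1.51 for IGD1, 1.24 for RPL29 and 1.15 for RPL34A, all more enriched in WT. MTM1 differed by -1.04 and YDR034C-A by -1.42, both more enriched in xrn1-H41A. On the depleted side HSP12 differed by -1.88 (standard error 0.0787, edgeR adjusted p = 6.66e-13), HAC1 by -1.58, SNQ2 by -1.30 and PUF3 by -1.04, all more strongly depleted in WT. The strains' RNA-seq libraries differ as well, and their part in these differences was not tested.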

How the results depend on the processing

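Removing the length trend lowered the enriched count to 457, against 787 as measured, and testing against a 2-fold change (glmTreat) lowered the depleted count to 391, against 593. Every other alternative kept both counts within 1.5 times. Scaling by library totals alone gave 992 enriched and 403 depleted, a shift of 0.15 in the median of all transcripts, and DESeq2 with apeglm gave 769 and 583. When single replicates were left out, the enriched count ranged from 777 to 793 and the depleted count from 578 to 605, and with the length trend removed from 452 to 469 and from 426 to 438. Among named genes, ENA1 (log2 fold change -0.05, not called) was 0.095 under library totals and 0.70 with the length trend removed, and SKI3 (-0.88, not called) was 0.0034 with the length trend removed. With the length trend removed, 24 of 131 named genes lost their call and 5 gained one. Leaving out single replicates ended or made a call in 8 named genes close to the 2-fold threshold or low in counts (RPL40A, FBA1, RPS4B, SNR14, SNR7-L, NME1, ARG2 and MND1). The medians of 14 of 51 lists changed sign with the length trend removed, of 9 with library totals and of 3 with at least 10 counts in every library. The last hold the retrotransposon genes, whose median of 0.37 was -0.45 under that filter. Among those under library totals is the large-subunit ribosomal protein list, whose median of -0.12 was 0.02 under library totals. A fit with the replicate block called 787 enriched and 590 depleted. Deviations of same-numbered libraries correlated at 0.07, 0.13 and 0.05, and each correlated best with its own number. The deviations were taken from means of 3 libraries, so these correlations cannot decide whether same-numbered libraries were paired. The cause of each change was not tested. Depth limits the values of transcripts near 3 counts.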
